A study of Mus musculus with 23 samples.

Results

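The glutathione S-transferases were followed here as 10 named genes among the 22350 genes of the RNA-seq reference: Gsta2, Gsta3 and Gsta4 of the alpha class, Gstm1, Gstm2 and Gstm3 of the mu class, Gstp1 of the pi class, Gsto1 of the omega class, Gstk1 of the kappa class and the membrane-bound Mgst1. The genes were chosen by name with earlier results of the same libraries known, and the choice sets no threshold and names no contrast. The values below are therefore a description of these libraries, and the number of members past a threshold is not independent support for any of them. All 10 genes were present in every reference that the reads had been assigned to.

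Intestinal organoids and mice of strain C57BL/6 were studied, and the comparisons ask what loss of Raptor, the mTORC1 subunit encoded by Rptor, did to mRNA and to ribosome occupancy. RNA-seq came from WT organoids (genotype VillinCre.ERT2.RPL22.HA, 2 organoid lines with 2 technical libraries each), from Rptor fl/fl organoids (VillinCre.ERT2.Rptor.fl/fl, 2 lines with 2 technical libraries each) and from stem cell enriched (SCe) organoids, which carried the WT genotype and were cultured with 10 μM CHIR 99021 and 1.5 mM valproic acid (3 libraries). Ribo-seq, which sequences the mRNA fragments covered by ribosomes, came from Rptor fl/fl organoids (VillinCre.ERT2.Rptor.fl/fl.RPL22.HA) and SCe organoids, 3 libraries each, and from the small intestine of 3 WT mice (Lgr5Cre.ERT2.RPL22.HA) and 3 Rptor fl/fl mice (Lgr5Cre.ERT2.Rptor.fl/fl.RPL22.HA), aged 8 to 12 weeks and taken 24 h after tamoxifen. In the Ribo-seq, ribosomes were captured through an HA tag on RPL22. The Villin promoter drives Cre throughout the intestinal epithelium and the Lgr5 promoter drives it in stem cells. The labels call the WT and Rptor fl/fl samples untreated, whereas the methods of the study describe induction with tamoxifen. The Rptor fl/fl lines used for RNA-seq differ from the WT and SCe lines also in the RPL22.HA allele, and SCe organoids differ from Rptor fl/fl organoids in genotype and in culture medium, so these factors cannot be told apart.

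Glutathione S-transferases join the tripeptide glutathione to reactive, electrophilic compounds, which are then exported from the cell. The cytosolic alpha, mu, pi and omega classes are encoded by gene clusters that arose by duplication, the kappa enzyme lies in mitochondria and peroxisomes, and Mgst1 sits in the membranes of the endoplasmic reticulum and mitochondria. Alpha-class enzymes are abundant in the absorptive cells of the small intestine, and several members are induced by the transcription factor NRF2.

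The alpha-class genes Gsta1, Gm3776, Gm10639 and Gsta2 lie within one stretch of chromosome 9 (mm10), and Gsta2 occupies chr9:78331018-78355788 on the minus strand. Their coding sequences are so alike that few reads can be placed on a single copy. The 4 lines below show why: they give the 60 coding bases, all within a single exon, in which Gsta2 differs most from Gsta1. Capitals in the Gsta2 line mark every base at which any of the other copies differs, and capitals in the other lines mark a difference from Gsta2. The bases are numbers 449 to 508 of each coding sequence, at chr9:78332125-78332184 for Gsta2, chr9:78241561-78241620 for Gsta1, chr9:78268044-78268103 for Gm3776 and chr9:78304406-78304465 for Gm10639.
Gsta2: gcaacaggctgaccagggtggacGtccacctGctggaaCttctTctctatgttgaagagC
Gsta1: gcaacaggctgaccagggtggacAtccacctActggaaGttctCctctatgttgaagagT
Gm3776: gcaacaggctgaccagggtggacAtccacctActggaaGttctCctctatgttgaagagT
Gm10639: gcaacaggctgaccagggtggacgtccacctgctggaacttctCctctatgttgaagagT
Gsta1 and Gm3776 are the same throughout this window and share 99.7% of their aligned coding bases. Gsta2 shares 97.6% with Gsta1 and 98.5% with Gm10639. Of the 637 stretches of 30 bases in the Gsta2 coding sequences, 85.9% also occur in another gene, and 30 bases is close to the length of a ribosome footprint.

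The pi-class pair is similar. Gstp1 (chr19:4035407-4037985, minus strand) and Gstp2 share 98.1% of their coding bases, and 77.9% of the 30-base stretches of Gstp1 occur in Gstp2. The first 60 coding bases span 3 exons in each gene, between chr19:4037374-4037863 for Gstp1 and chr19:4041668-4042165 for Gstp2 on the minus strand. They include the start codon and hold 6 of the 12 coding differences between them, marked in capitals.
Gstp1: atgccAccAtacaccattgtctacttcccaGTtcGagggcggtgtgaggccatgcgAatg
Gstp2: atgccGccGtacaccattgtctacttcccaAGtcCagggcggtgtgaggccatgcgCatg
Within the mu class, which lies in a cluster on chromosome 3, the shared 30-base stretches came to 41.1% for Gstm3, 26.8% for Gstm1 and 20.6% for Gstm2. A stretch of 60 bases near the end of the coding sequence tells the 3 genes apart, with capitals as in the alpha class. The bases are numbers 670 to 729 of the coding sequence in Gstm1 and 592 to 651 in Gstm2 and Gstm3. They lie in 1 exon each, at chr3:108012695-108012754 for Gstm1, chr3:107982055-107982114 for Gstm2 and chr3:107964213-107964272 for Gstm3.
Gstm1: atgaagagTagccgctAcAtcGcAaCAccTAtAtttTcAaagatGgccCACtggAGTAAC
Gstm2: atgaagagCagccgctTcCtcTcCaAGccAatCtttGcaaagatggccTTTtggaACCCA
Gstm3: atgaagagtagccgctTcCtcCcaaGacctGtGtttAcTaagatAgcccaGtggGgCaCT
Gsta3 shared 1.89% of its coding stretches with other genes, and Gsta4, Gsto1, Gstk1 and Mgst1 shared 0 of theirs, so reads of these 5 genes could be placed with little or no ambiguity.

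The division of reads among the alpha copies differed between assays. Of all reads, the 10 members took 0.317% and 0.324% in the WT lines, 0.255% and 0.266% in the Rptor fl/fl lines and 0.162% to 0.205% in SCe organoids. In RNA-seq, Gsta2 received 2.94% to 4.93% of the reads given to the 4 copies and Gm3776 7.32% to 13.1%. In Ribo-seq of Rptor fl/fl organoids Gm3776 received 40.7% to 44.0%, and in the 3 SCe libraries it received 16.5%, 24.8% and 47.1%. Gsta2 received 1.38% to 1.97% in Rptor fl/fl organoids and 0.407% to 0.763% in SCe organoids. Of the reads of Gstp1, Gstp2 and Gstp3, Gstp1 received 84.6% to 90.6% in RNA-seq, 67.8% to 73.9% in footprints of Rptor fl/fl organoids and 86.6% to 93.6% in footprints of SCe organoids. Values for Gsta2, and to a lesser degree Gstp1 and the mu genes, are thus uncertain, and the sum over near copies is given beside them.

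**Figure D1:**
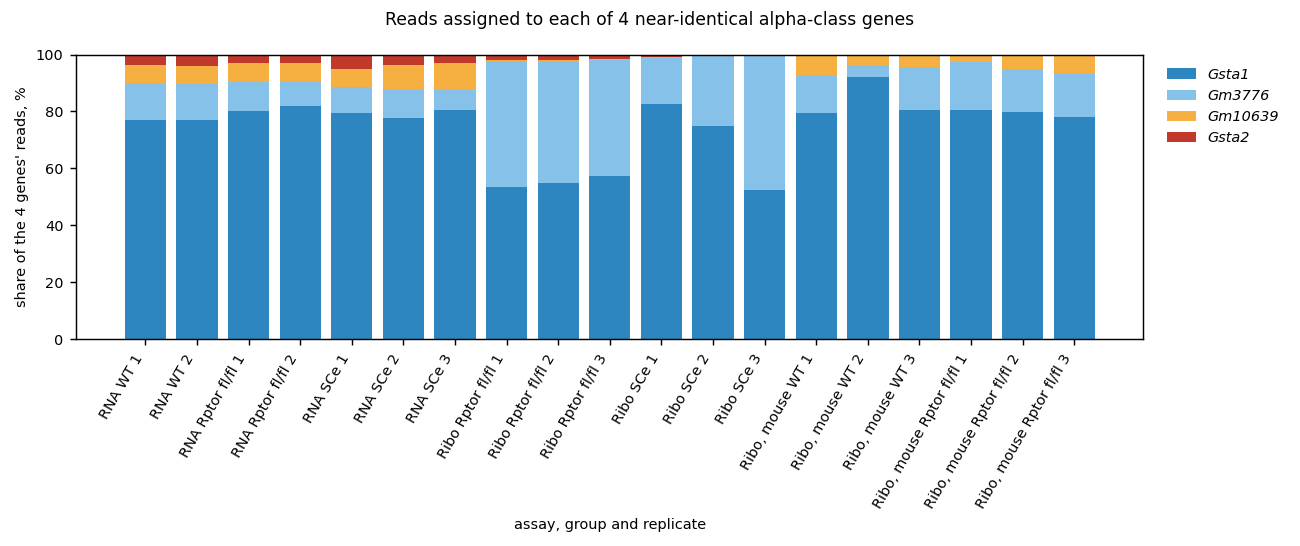
Share of the reads of 4 near-identical alpha-class genes that was assigned to each gene, in percent, with 1 bar for each organoid line, library or mouse. Gsta1 held most of the reads in every bar, the Gm3776 share was 40.7% to 44.0% in footprints of Rptor fl/fl organoids against 7.32% to 13.1% in RNA-seq, and the Gsta2 share never passed 4.93%.

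Depth ranged from 50174081 to 56684159 assigned reads for the WT and Rptor fl/fl lines in RNA-seq and from 27439433 to 67598842 for SCe, from 1106157 to 8257453 footprints in organoids and from 772034 to 8238353 in mice. Rptor mRNA, in CPM (counts scaled to a common library size after TMM), was 51.5 and 47.9 in WT against 14.8 and 15.5 in Rptor fl/fl organoids, a log2 fold change of -1.71 (edgeR adjusted p = 0.00483). Rptor footprints did not pass the test against SCe organoids (log2 fold change -0.53, edgeR adjusted p = 0.318) or against WT mice (-0.28, edgeR adjusted p = 0.149), so in Ribo-seq the group name stands for the libraries labelled Rptor fl/fl. SCe replicate 1 of the RNA-seq stood apart: 10 enterocyte markers summed to 394 CPM there, against 6991 and 8122 CPM in the other SCe libraries and 8230 and 9000 CPM in WT lines. In Ribo-seq, the same list came to 1269 CPM in SCe replicate 1, to 4131 and 4318 CPM in the other SCe libraries and to 9370 to 9915 CPM in Rptor fl/fl organoids. Calls of members and counts of the gene lists that rest on the SCe libraries are given with and without replicate 1, and values of near copies and of other single genes are from all libraries. In bulk samples, fewer cells of a type and less RNA per cell cannot be told apart.

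Per unit of transcript length, Gstp1 and Gsta4 were the highest members in WT organoids, at 986 ± 126 and 983 ± 79.2 TPM (SD, n = 2), and their ranges overlapped. Gstm1 (760 ± 93.9 TPM), Mgst1 (748 ± 90.9 TPM), Gsto1 (633 ± 86.7 TPM) and Gstm3 (632 ± 42.8 TPM) followed, and neighbours in this order did not differ beyond their spread. Gsta3 (218 ± 7.55 TPM) and Gsta2 (190 ± 34.7 TPM) were lower, Gstm2 reached 92.4 ± 0.275 TPM and Gstk1, at 36.8 TPM in each line, was the lowest. Gsta1, the near copy of Gsta2, reached 3368 ± 365 TPM and lay above every member. In Rptor fl/fl organoids Gsta4 led the members at 1349 ± 30.4 TPM, and in SCe organoids Gstp1 did, at 1210 ± 475 TPM (SD, n = 3).

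Between Rptor fl/fl and WT organoids, the mRNA of the mu-class genes Gstm3 and Gstm1 and of Gstp1 fell, and that of Gsta4 rose. The 2 WT lines held 518 and 573 CPM of Gstm3 mRNA, against 167 and 220 CPM after Rptor deletion. Its log2 fold change was -1.49 ± 0.15 (SE; edgeR adjusted p = 0.0115). Gstm1, a main mu-class enzyme, went from 574 and 688 CPM to 312 and 360 CPM, a change of -0.91 ± 0.13 on the log2 scale (edgeR adjusted p = 0.0170). Neither gene's groups overlapped, and the summed reads of the mu genes Gstm1 to Gstm7 gave -1.06 ± 0.12 (edgeR adjusted p = 0.0134). Gstp1, the pi-class enzyme, stood at 493 and 417 CPM in WT and at 296 and 276 CPM in Rptor fl/fl organoids (log2 fold change -0.67 ± 0.10, edgeR adjusted p = 0.0196). Gsta4, which handles the lipid peroxidation product 4-hydroxynonenal, was at 607 and 550 CPM in WT and at 719 and 736 CPM in Rptor fl/fl organoids, a log2 fold change of 0.33 ± 0.08 (edgeR adjusted p = 0.0450).

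The other 6 members did not pass the threshold in this contrast. Gsta3, whose product inactivates aflatoxin epoxide, had almost equal levels, at 133 and 143 CPM in WT and 137 and 132 CPM in Rptor fl/fl organoids (log2 fold change -0.04, 95% interval -0.21 to 0.13). Gstm2 was at 54.4 and 54.5 CPM in WT and 46.6 and 48.4 CPM in Rptor fl/fl organoids (edgeR adjusted p = 0.0724). The log2 fold changes were -0.36 ± 0.22 for Gsta2, 0.13 ± 0.11 for Gsto1, 0.25 ± 0.13 for Gstk1 and -0.25 ± 0.17 for Mgst1, and the summed alpha copies gave -0.0097 ± 0.20 (edgeR adjusted p = 0.979). In all, 1 member was called higher and 3 lower, with a median log2 fold change of -0.22 over the 10, against -0.00494 over the 14131 genes tested, of which 11.7% were called higher and 11.3% lower. With 2 lines a group, the call of Gsta4 was lost without any 1 of the 4 lines (edgeR adjusted p 0.0866 to 0.273) and that of Gstp1 without WT replicate 1 (0.0678), Rptor fl/fl replicate 1 (0.0509) or Rptor fl/fl replicate 2 (0.0553). When the SCe libraries shared the estimate of spread, 0 members were called by edgeR, with adjusted p of 0.106 for Gstp1, 0.270 for Gstm3, 0.295 for Gstm1 and 0.335 for Gsta4. In that fit 5.44% of 15135 genes were called higher and 4.83% lower. The enterocyte marker sums overlapped in this contrast, at 8230 and 9000 CPM in WT and 6556 and 10163 CPM in Rptor fl/fl lines. So did the enteroendocrine sums, at 173 and 256 against 91.1 and 211 CPM. Other cell type markers moved: 6 Paneth cell markers summed to 4946 and 6170 CPM in WT and to 882 and 1847 CPM in Rptor fl/fl lines, 6 goblet markers to 1567 and 1669 against 2836 and 3900 CPM, and 7 stem cell markers to 4847 and 6599 against 1953 and 3300 CPM. Their part in the member values was not tested.

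**Figure D2:**
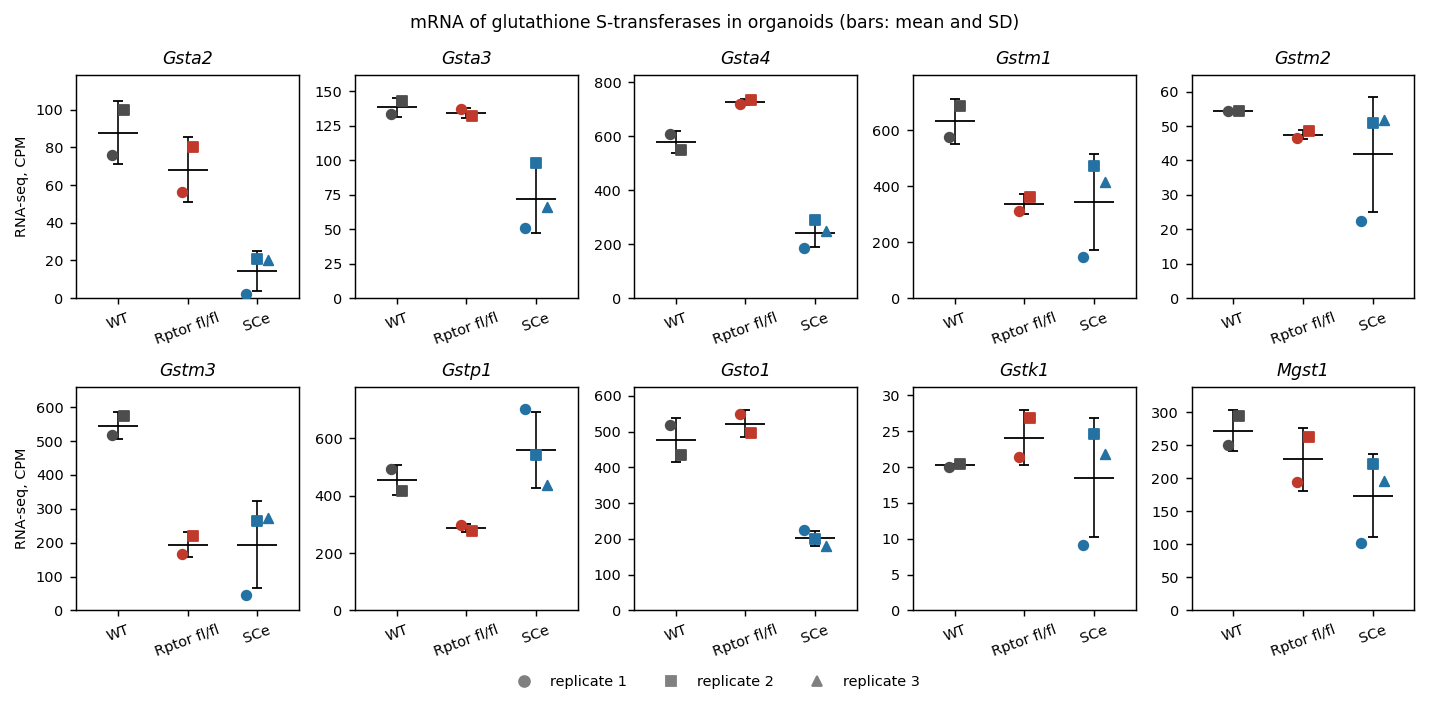
RNA-seq level of each member in CPM (linear axis from 0) in 2 WT lines, 2 Rptor fl/fl lines and 3 SCe libraries. Points are lines or libraries, the shape of a point gives its replicate, and bars give the mean and SD. Gstm3 fell from 518 and 573 CPM in WT to 167 and 220 CPM in Rptor fl/fl organoids, and SCe replicate 1 was the lowest SCe library for 8 of the 10 genes.

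Against WT organoids, the mRNA of Gsta4 and Gsto1 was lower in SCe organoids. A negative log2 fold change was found for 9 of the 10 members and for 7235 of the 14925 genes tested. Gstk1, at -0.10 ± 0.43, was among the 9. Gsto1, an omega-class enzyme that reduces rather than conjugates its substrates, stood at 519 and 434 CPM in WT and at 224, 198 and 181 CPM in SCe organoids, a log2 fold change of -1.22 ± 0.13 (edgeR adjusted p = 0.00307). Gsta4 reached 184, 288 and 249 CPM in SCe organoids, all below WT, with a change of -1.24 ± 0.20 (edgeR adjusted p = 0.00853). Without WT replicate 1 or WT replicate 2, the adjusted p for Gsta4 was 0.0633 or 0.0544 by edgeR. Gsta2 stood at 76.0 and 99.9 CPM in WT and at 2.27, 20.6 and 20.5 CPM in SCe organoids, groups that did not overlap, without reaching the threshold (-2.57 ± 0.85, edgeR adjusted p = 0.0644), and for Gsta3 the values were 50.7, 97.8 and 65.8 CPM in SCe organoids (-0.93 ± 0.28, edgeR adjusted p = 0.0504). Of the 10, Gstp1 alone had a higher mean in SCe organoids, at 701, 542 and 438 CPM, and its range overlapped that of WT (0.32 ± 0.22, edgeR adjusted p = 0.280).

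SCe replicate 1 lay apart from the other two SCe libraries in this contrast. Gstm3 stood at 45.3 CPM in that library and at 264 and 274 CPM in the other SCe libraries, and Gstm1 at 148 against 471 and 413 CPM. With all 3 libraries, 0 members were called higher and 2 lower, and the median log2 fold change was -0.89 against 0.0232 over the 14925 genes tested, of which 22.2% were called higher and 19.9% lower. Without SCe replicate 1, 7 members were called, all lower, beside 31.8% of 14855 genes called higher and 32.2% called lower in that fit. These were Gsta2 (-2.08, edgeR adjusted p = 0.000383), Gstm3 (-1.002, 0.000267), Gsto1 (-1.31, 0.000381), Gsta4 (-1.09, 0.000410), Gstm1 (-0.50, 0.0145), Gsta3 (-0.74, 0.0263) and Mgst1 (-0.36, 0.0302). Without SCe replicate 2, Gsta3 was also past the threshold (-1.23, edgeR adjusted p = 0.0168), and without WT replicate 1 or WT replicate 2 only Gsto1 was called, whose call held under every alternative run. SCe replicate 1 also had a low enterocyte marker sum, at 394 CPM against 6991 and 8122 CPM in the other SCe libraries. In the same library Gsto1 (224 CPM) and Gstp1 (701 CPM) had their highest SCe values. Other marker sums also differed between the groups: goblet markers came to 1567 and 1669 CPM in WT and to 244, 362 and 428 CPM in SCe organoids, 5 enteroendocrine markers to 173 and 256 against 2.04, 18.7 and 23.6 CPM, Paneth cell markers to 4946 and 6170 against 922, 3464 and 4085 CPM and stem cell markers to 4847 and 6599 against 3114, 2450 and 2395 CPM. The part of these in the member values was not tested.

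Between Rptor fl/fl and SCe organoids, Gsta3, Gsta4 and Gsto1 mRNA was higher and Gstp1 mRNA lower in Rptor fl/fl organoids. This contrast shares its SCe libraries with the one above and its Rptor fl/fl lines with the first. Gsto1 stood at 549 and 496 CPM against 224, 198 and 181 CPM (log2 fold change 1.38 ± 0.11, edgeR adjusted p = 0.00167). Gsta4 was higher by 1.60 ± 0.19 on the log2 scale (edgeR adjusted p = 0.00359), and Gsta3 by 0.91 ± 0.27 (edgeR adjusted p = 0.0468). Gstp1 was lower, at 296 and 276 CPM against 701, 542 and 438 CPM (-0.97 ± 0.21, edgeR adjusted p = 0.0188). The median over the members was 0.39, against -0.0136 over 15103 genes tested, of which 21% were called higher and 21.7% lower. The call of Gstp1 was lost without Rptor fl/fl replicate 1 (edgeR adjusted p = 0.104) or replicate 2 (0.122), and that of Gsta3 without Rptor fl/fl replicate 1 (0.183) or replicate 2 (0.170), or SCe replicate 3 (0.132).

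Without SCe replicate 1, 4 members were called higher and 3 lower in Rptor fl/fl than in SCe organoids, beside 30.8% and 30.1% of 14953 genes in that fit. Gsta2 joined those called higher (1.73, edgeR adjusted p = 0.00149), beside Gsta3 (0.71, 0.0329), Gsta4 (1.44, 0.000197) and Gsto1 (1.46, 0.000167), and Gstp1 gave -0.78 (0.00265). Gstm1 (-0.40, 0.0228) and Gstm3 (-0.47, 0.0334) joined those called lower by edgeR, whereas with all libraries their log2 fold changes were -0.03 and -0.00412. Without SCe replicate 2 they were 0.25 and 0.27, so the sign for both genes changed with the library left out. Goblet markers summed to 2836 and 3900 CPM in Rptor fl/fl lines against 244 to 428 CPM in SCe organoids, and enteroendocrine markers to 91.1 and 211 against 2.04 to 23.6 CPM. The enterocyte, stem cell and Paneth cell sums overlapped between these groups, at 6556 and 10163 against 394 to 8122 CPM, 1953 and 3300 against 2395 to 3114 CPM and 882 and 1847 against 922 to 4085 CPM. The part of the markers in the member values was not tested.

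Ribosome footprints of the alpha-class members Gsta2, Gsta3 and Gsta4 and of Gstm2 were higher in the libraries labelled Rptor fl/fl than in SCe organoids, and these calls held whichever of the 6 libraries was left out. Gsta3 held 342, 388 and 334 CPM in Rptor fl/fl organoids and 81.7, 52.0 and 69.2 CPM in SCe organoids, groups that lay far apart. Its log2 fold change was 2.38 ± 0.20 (edgeR adjusted p = 0.000476). Gsta4 stood at 1136, 1164 and 1110 CPM against 601, 452 and 389 CPM, again without overlap (1.24 ± 0.20, edgeR adjusted p = 0.00520). Gstm2, a mu-class enzyme of low mRNA level here, was at 94.7, 86.0 and 90.0 CPM against 52.5, 32.4 and 36.9 CPM (1.15 ± 0.21, edgeR adjusted p = 0.00740), while the sum over the mu genes gave 0.52 ± 0.22 and did not pass (edgeR adjusted p = 0.138).

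Gsta2 had the largest change of the members, on few reads in SCe organoids. It was given 314, 344 and 288 footprints in Rptor fl/fl organoids and 3, 3 and 9 in SCe organoids, a log2 fold change of 4.51 ± 0.33 (edgeR adjusted p = 0.000280). These counts leave out footprints placed on separate entries for 5′ regions, which held 69, 156 and 161 further footprints in Rptor fl/fl organoids and 10, 16 and 25 in SCe organoids. With the 5′ entries counted, an alternative chosen after seeing the data, the log2 fold change of Gsta2 was 2.82 ± 0.30 (edgeR adjusted p = 0.00126). Of its near copies, Gsta1 rose by 2.32 ± 0.34 (edgeR adjusted p = 0.00353) and Gm3776 by 3.05 ± 0.54 (edgeR adjusted p = 0.00686). Gm10639 was given 62, 66 and 125 footprints in Rptor fl/fl organoids and 0 in each SCe library, where a count of 0 allows up to 2.56 CPM. Summed over the copies, the footprints came to 2644, 2848 and 2535 CPM in Rptor fl/fl organoids and to 213, 629 and 465 CPM in SCe organoids, a log2 fold change of 2.62 ± 0.36 (edgeR adjusted p = 0.00280). The summed value does not depend on how coding footprints were divided among the copies, but it leaves out footprints placed on 5′ entries. It is smaller than that of the Gsta2 coding entries alone.

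The remaining members did not pass in footprints. Gsto1 lay at 639, 760 and 674 CPM in Rptor fl/fl organoids, above 545, 304 and 284 CPM in SCe organoids (0.87 ± 0.26, edgeR adjusted p = 0.0552), and passed without SCe replicate 1 (1.24, 0.000387) or with the 5′ entries counted (0.89, 0.0437). Gstm3 (0.93 ± 0.32, edgeR adjusted p = 0.0798) passed without SCe replicate 1 (0.65, 0.0340) or replicate 2 (1.33, 0.0260), Gstm1 (0.57 ± 0.27, 0.179) without SCe replicate 2 (0.93, 0.0263), and Mgst1 (0.39 ± 0.17, 0.150) without SCe replicate 3 (0.54, 0.0449). Gstp1 footprints stood at 678, 818 and 731 CPM in Rptor fl/fl organoids and spread from 797 over 929 to 2311 CPM in SCe organoids, with the highest value in replicate 1 (-0.86 ± 0.38, edgeR adjusted p = 0.154, and -0.21 without that library). Gstk1, the mitochondrial and peroxisomal enzyme, was at 27.7, 26.8 and 21.9 CPM against 31.4, 33.3 and 32.3 CPM (-0.35 ± 0.19, edgeR adjusted p = 0.251). In all, 4 members were called higher and 0 lower, and at an unadjusted p under 0.05 the edgeR fit held 8 members and 3486 of the 10817 genes tested. DESeq2 called 6 members higher and 0 lower, beside 8.64% and 12.1% of the same genes. With SCe replicate 1 left out, edgeR called 6 higher and 0 lower, beside 10.5% and 13.5% of 11261 genes. With all libraries the median was 0.90 against -0.0230 over the genes tested, of which 6.59% were called higher and 9.83% lower. Summed cell type markers were also higher in every Rptor fl/fl library than in every SCe library: besides the enterocyte list, at 6224 to 6383 against 2682 to 4640 CPM for 7 stem cell markers, 6218 to 9300 against 3400 to 5905 CPM for the 5 of 6 listed Paneth cell markers that the Ribo-seq reference holds, all of them above 0, 2848 to 4497 against 1077 to 1479 CPM for 6 goblet markers and 487 to 581 against 34.1 to 59.0 CPM for 5 enteroendocrine markers. Their part in the member values was not tested.

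**Figure D3:**
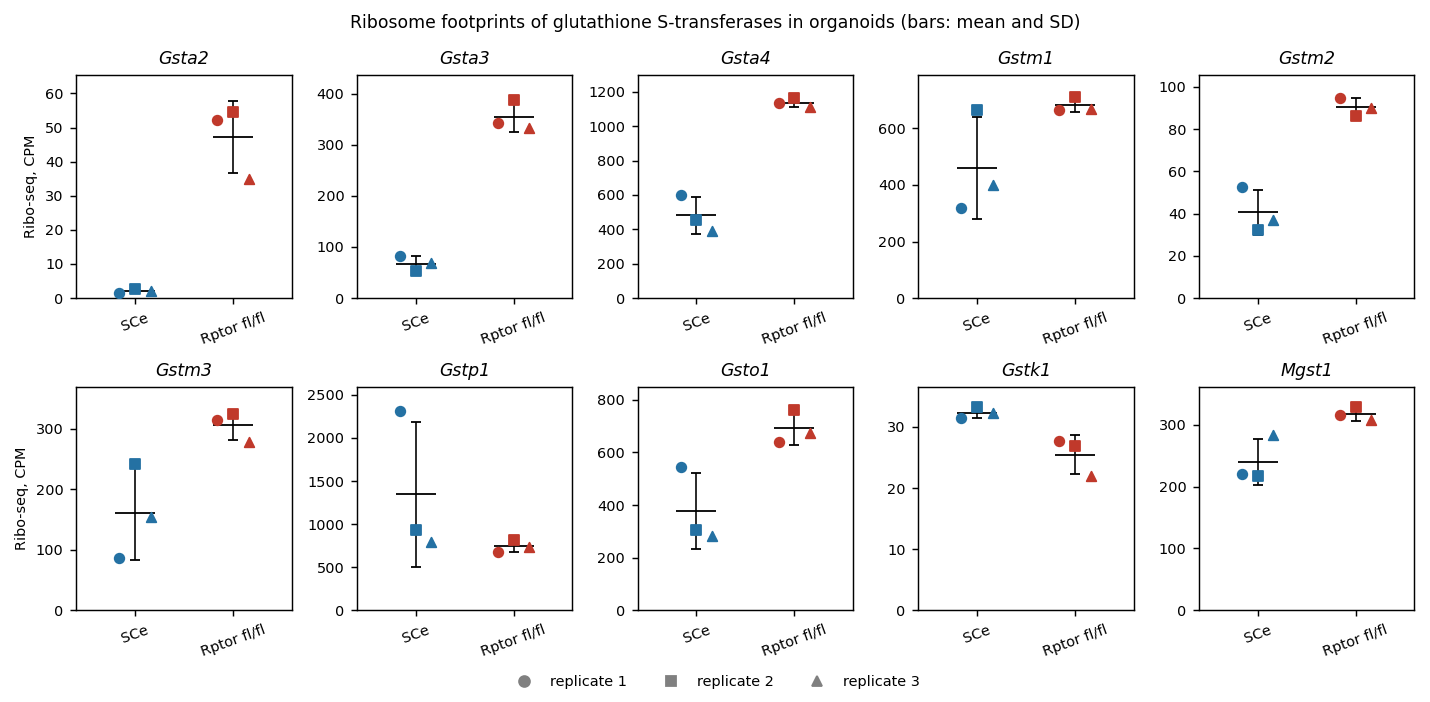
Ribosome footprints of each member in CPM (linear axis from 0) in 3 SCe libraries and 3 libraries labelled Rptor fl/fl. Points are libraries and bars give the mean and SD. All Rptor fl/fl libraries lay above all SCe libraries for the 3 alpha-class members, the 3 mu-class members, Gsto1 and Mgst1. For Gstk1 all Rptor fl/fl libraries lay below all SCe libraries. For Gstm1 the lowest Rptor fl/fl value was 664.945 CPM and the highest SCe value 664.558 CPM. Only Gsta2, Gsta3, Gsta4 and Gstm2 passed the test, and the share of all genes lying apart in this way is not given here.

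Translation efficiency, the change of footprints beyond that of mRNA, differed for Gsta3. Its footprints rose by 2.38 and its mRNA by 0.91 on the log2 scale, and the interaction of assay and group was 1.53 ± 0.35 (95% interval 0.76 to 2.29, edgeR adjusted p = 0.0427). Gsta4 gave -0.30 ± 0.30, with an interval from -0.95 to 0.35, and its mRNA and footprints rose by 1.60 and 1.24. Gsto1 gave -0.45 ± 0.33 and Gstm2 1.02 ± 0.43 (edgeR adjusted p = 0.215). For Gsta2 the estimate was 2.36 ± 1.23 (edgeR adjusted p = 0.323), or 0.67 ± 1.02 with the 5′ entries counted, and for the summed alpha copies it was 0.33 ± 1.14, an interval too wide to tell a change from none. In all, 1 member was called higher and 0 lower, while 1.14% of 10747 genes were called higher and 1.82% lower. At an unadjusted p under 0.05 the edgeR fit held 2 members and 2164 of the 10747 genes. The median was 0.41 over the members and -0.0308 over all genes tested. The lines behind mRNA and footprints carried different genotype labels in the Rptor fl/fl group, which cannot be told apart from the assay.

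The call of Gsta3 held without SCe replicate 1 of the RNA-seq (1.73, edgeR adjusted p = 0.0113) and without SCe replicate 1 (1.66, 0.0236) or replicate 3 of the Ribo-seq. It was lost without any one of the other libraries, namely RNA-seq Rptor fl/fl replicates 1 and 2 (edgeR adjusted p = 0.182 and 0.180), RNA-seq SCe replicates 2 and 3 (0.0817 and 0.0942), Ribo-seq Rptor fl/fl replicates 1, 2 and 3 (0.0852, 0.102 and 0.101) and Ribo-seq SCe replicate 2 (0.0635). The log2 value stayed between 1.23 and 1.73 over the alternatives. Without SCe replicate 1 of the RNA-seq, 3 members were called, with Gsta2 (2.86, edgeR adjusted p = 0.00698) and Gstm2 (1.32, 0.0158) beside Gsta3, while 2.65% of 10736 genes were called higher and 3.99% lower in that fit.

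**Figure D4:**
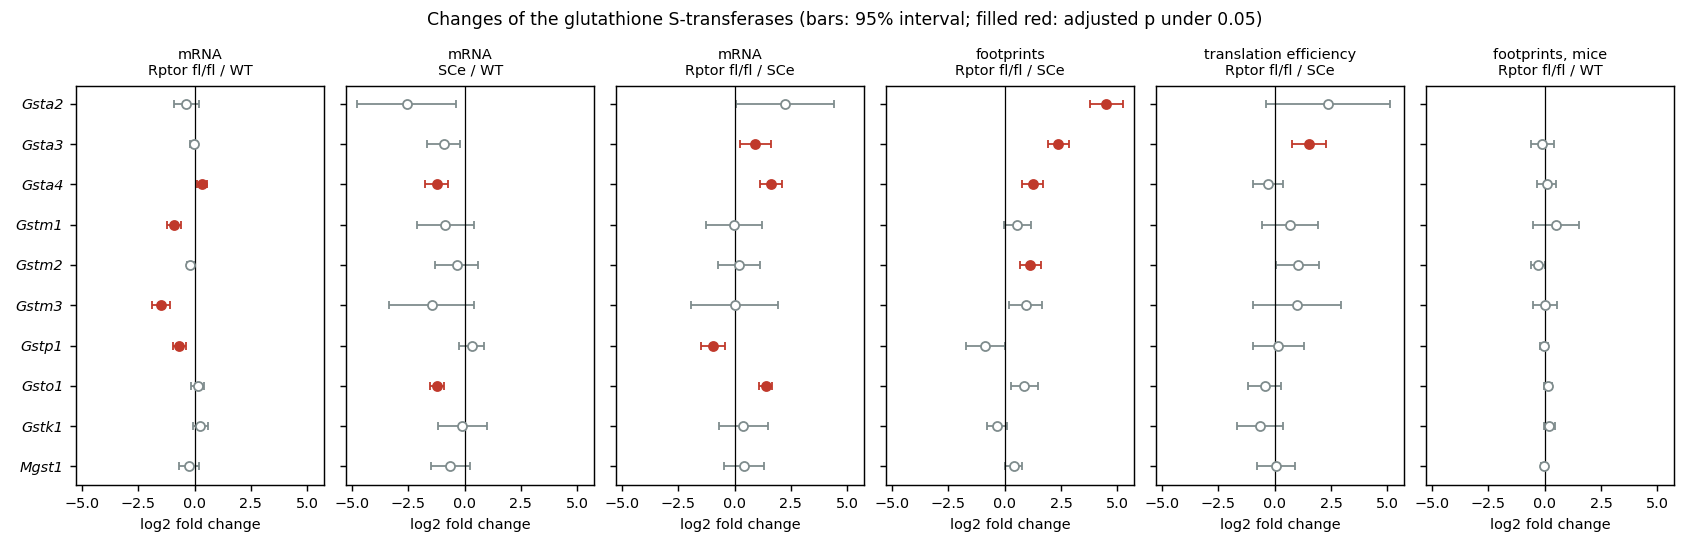
Log2 fold change of each member in the 6 comparisons, with its 95% interval (horizontal axis, the same in all panels) and filled red points for an edgeR adjusted p under 0.05. Footprints of Gsta2 (4.51) and Gsta3 (2.38) lie farthest to the right, Gstm3 mRNA in Rptor fl/fl against WT organoids lies at -1.49, and the values from mice lie between -0.31 and 0.50.

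In mice, 0 of the 9 members that could be tested passed between Rptor fl/fl and WT animals. The methods describe references trimmed of untranslated regions, but the lengths of the mouse entries differ from that: of the 47180 mouse entries with an annotated 5′ region over 50 bases, 100% were at least as long as the coding and 5′ regions together, against 0 of 41733 coding entries in the organoid reference. Counts in mice can therefore hold footprints on 5′ regions, and levels were not compared between mice and organoids. Ribosomes were captured through the HA tag from lysates of whole small intestine, and the paper describes the tag as confined to stem cells at the crypt base. Gsto1, Gstp1 and Mgst1 had the most footprints. Gsto1 stood at 589, 535 and 471 CPM in WT and at 575, 603 and 575 CPM in Rptor fl/fl mice, overlapping groups (log2 fold change 0.15, 95% interval -0.01 to 0.31). Gstp1 was at 550, 473 and 510 CPM in WT and at 442, 512 and 528 CPM in Rptor fl/fl mice (-0.04, interval -0.21 to 0.12), and Mgst1 at 317, 328 and 330 CPM in WT and at 304, 317 and 333 CPM in Rptor fl/fl mice (-0.03, interval -0.19 to 0.12). For these 3 genes the intervals leave room for changes of at most 0.31 on the log2 scale.

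The alpha and mu genes were less well measured in mice. Gsta2 had 0, 4 and 0 footprints in WT and 0, 1 and 0 in Rptor fl/fl mice and was not tested, and a count of 0 allows up to 3.77 CPM at the lowest depth. Gsta3 had 10 to 81 footprints a library, or 7.72 to 12.9 CPM in WT and 7.58 to 13.8 CPM in Rptor fl/fl mice. Gstm2 was the only member whose groups did not overlap, at 25.2, 28.6 and 25.3 CPM in WT and 21.3, 20.9 and 21.4 CPM in Rptor fl/fl mice, with a log2 fold change of -0.31 ± 0.15 (edgeR adjusted p = 0.190). Rptor fl/fl replicate 1 was the highest of the 6 mice for Gsta4 (100 CPM), Gstm1 (211 CPM), Gstm3 (212 CPM) and the summed alpha copies (575 CPM, against 250 to 345 CPM in the other 5). Without that mouse, Gstm3 gave -0.23 (edgeR adjusted p = 0.0600) and Gsta4 -0.15 (0.375), both with the opposite sign to the values with all mice, 0.01 and 0.08. Of the 9 members tested, 0 were called in edgeR and 0 in DESeq2, and 0 had an unadjusted edgeR p under 0.05, against 3125 of the 11515 genes tested, while 8.25% of these genes were called higher and 6.63% lower. The median was 0.01, against -0.0153 over all genes tested. Markers of other tissues were present in the capture, with 6 smooth muscle markers summing to 1261 to 1474 CPM and 10 pancreatic acinar markers to 1480 to 3885 CPM. The 10 enterocyte markers summed to 54467 to 55880 CPM in WT and 60577 to 65660 CPM in Rptor fl/fl mice, 6 immune markers to 14806 to 15395 against 12515 to 13674 CPM, and 7 stem cell markers to 716 to 741 against 455 to 713 CPM. The 5 Paneth cell markers in the reference summed to 8691 to 9537 CPM in WT and 4919 to 8438 CPM in Rptor fl/fl mice, 6 goblet markers to 21352 to 21725 against 24987 to 27969 CPM and 6 stroma markers to 883 to 942 against 1123 to 1324 CPM. Rptor fl/fl replicate 1 stood apart from the other Rptor fl/fl mice in Paneth cell markers (8438 against 5102 and 4919 CPM), in stem cell markers (713 against 506 and 455 CPM) and in 5 enteroendocrine markers (452 against 283 and 291 CPM). The part of these in the member values was not tested.

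**Figure D5:**
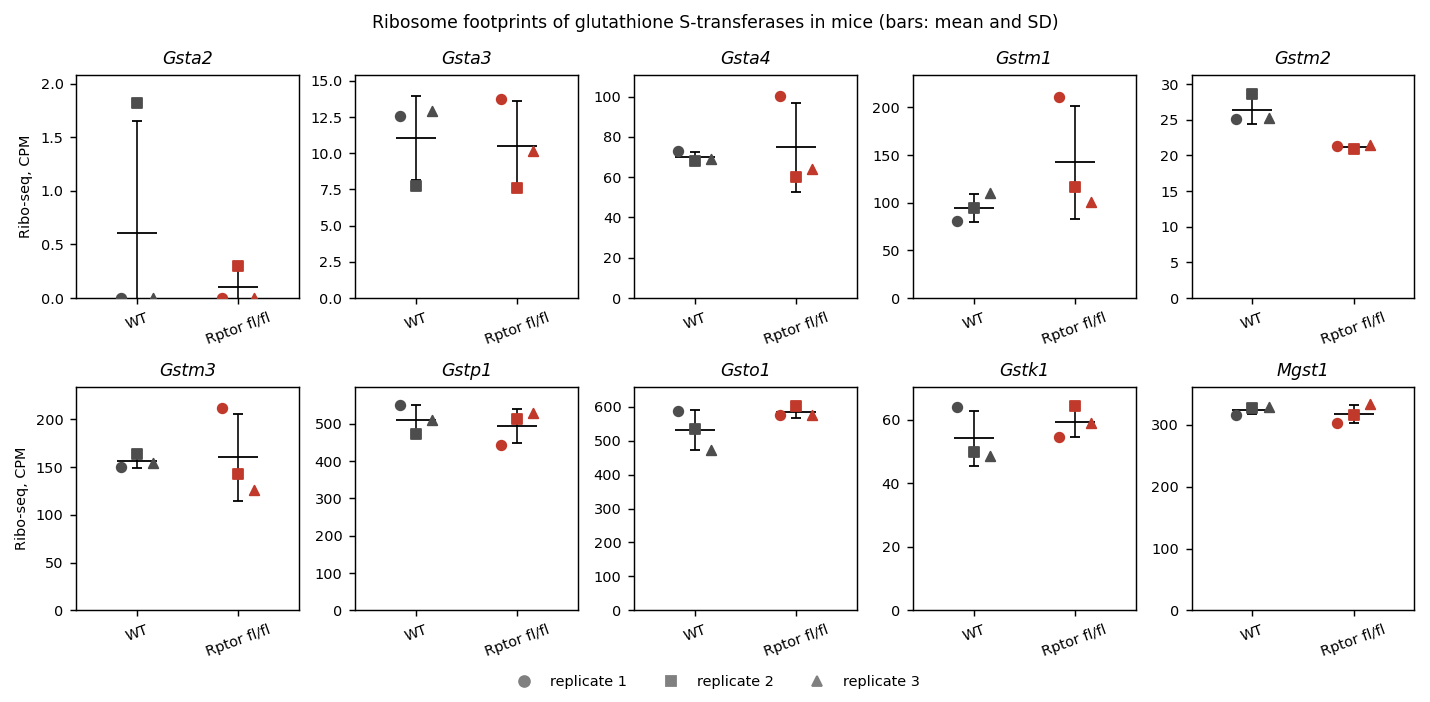
Ribosome footprints of each member in CPM (linear axis from 0) in 3 WT and 3 Rptor fl/fl mice, with points for mice and bars for the mean and SD, which for Gsta2 are clipped at 0. The groups overlapped for every member but Gstm2, and Rptor fl/fl replicate 1 was the highest of the 6 mice for Gsta3, Gsta4, Gstm1 and Gstm3.

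Other glutathione transferase genes were read from a list of 24, of which the near copies above are part. Counts of this list and of the next lists are given beside the shares of all genes tested that were called higher and lower in the same fit, and medians over all genes lay between -0.0308 and 0.0232 in the 6 comparisons. Between Rptor fl/fl and WT organoids, 1 of the 19 tested was called higher and 5 lower, against 11.7% and 11.3% of all genes (median -0.24 on the log2 scale). Hpgds, the prostaglandin D synthase of the sigma class, rose by 2.30 ± 0.27 (edgeR adjusted p = 0.0136), and the mu genes Gstm7 (-1.06 ± 0.12) and Gstm4 (-0.70 ± 0.09) fell. Between SCe and WT organoids 3 of 20 were called higher and 7 lower (all genes 22.2% and 19.9%, list median -0.47), with Mgst3 at -1.81 ± 0.23 and Gstm7 at -0.86 ± 0.12 falling and Gstt1, of the theta class, rising by 0.93 ± 0.13. Between Rptor fl/fl and SCe organoids 5 of 20 were called higher and 5 lower in mRNA (all genes 21% and 21.7%, list median -0.12), among them Hpgds (4.40 ± 0.59), Gstm5 (-1.90 ± 0.21) and Gstt1 (-1.181 ± 0.15). In footprints 7 of 17 were called higher and 2 lower (all genes 6.59% and 9.83%, list median 0.66), led by Mgst2, a microsomal enzyme (1.95 ± 0.21, edgeR adjusted p = 0.00126), with Gm10639 and Gsta1 as given above. In translation efficiency Gstm6 was the 1 gene of 17 called (1.50 ± 0.34, edgeR adjusted p = 0.0421), upward as 1.14% of all genes were, with a list median of 0.43. Gstm5 (0.93 ± 0.26) and Gstm7 (0.95 ± 0.30) came next without passing. In mice Clic1, a chloride channel protein with a transferase fold, was the 1 gene of 18 called, upward as 8.25% of all genes were (0.41 ± 0.08, edgeR adjusted p = 0.000787, list median 0.12), and Gstm6 (0.31 ± 0.14) and Gstcd (-0.62 ± 0.33) were next. When SCe replicate 1 was left out, 6 were called higher and 11 lower between SCe and WT organoids, 8 and 8 in mRNA and 8 and 2 in footprints between Rptor fl/fl and SCe organoids, beside 31.8% and 32.2%, 30.8% and 30.1%, and 10.5% and 13.5% of all genes.

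Genes that make, recycle and export glutathione formed a list of 36. Between Rptor fl/fl and WT organoids, 3 of the 34 tested were called higher and 12 lower, against 11.7% and 11.3% of all genes, with a median of -0.32. Slc7a11, the cystine transporter that feeds glutathione synthesis, fell by 2.69 on the log2 scale (edgeR adjusted p = 0.00509), as did Ggt1, which breaks down extracellular glutathione (-3.25 ± 0.17, edgeR adjusted p = 0.00509), and the exporter Abcc3 rose by 0.88 ± 0.07. Between SCe and WT organoids, 9 of 34 were called higher and 11 lower (all genes 22.2% and 19.9%, list median 0.22). Gpx1, a glutathione peroxidase, stood at -1.51 ± 0.07, Ggt6 at -1.41 ± 0.11 and Ggct at 1.65 ± 0.12. Against SCe organoids, Rptor fl/fl mRNA was called higher for 7 and lower for 13 of 34 (all genes 21% and 21.7%, list median -0.45), with the same genes leading (Gpx1 1.33 ± 0.10, Ggct -1.91 ± 0.14, Ggt6 1.50 ± 0.12). In footprints 7 of 31 were called higher and 5 lower (all genes 6.59% and 9.83%, list median -0.0945), among them Abcc3 (1.176 ± 0.15), Abcc4 (-1.41 ± 0.20) and Cbs (-1.69 ± 0.25). Translation efficiency was called higher for 2 and lower for 1 of 31 (all genes 1.14% and 1.82%, list median 0.21), namely Slc7a11 (3.93 ± 0.54), Anpep (1.66 ± 0.39) and Abcc3 (-1.16 ± 0.26). In mice 8 of 31 were called higher and 1 lower (all genes 8.25% and 6.63%, list median 0.12), with Gpx2, the gastrointestinal glutathione peroxidase, at 0.90 ± 0.10 (edgeR adjusted p = 1.29e-06), Abcg2 at 0.59 ± 0.09 and Abcc2 at -0.51 ± 0.08. Without SCe replicate 1 the counts of this list became 18 higher and 13 lower for SCe against WT organoids, 7 and 19 for Rptor fl/fl against SCe mRNA and 7 and 8 for footprints, beside the all-gene shares given for the list before.

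A list of 29 genes held targets of NRF2 together with Nfe2l2 and Keap1, which are counted with them below. Some of the 29 also stand in the glutathione list. Nfe2l2, which encodes NRF2, rose by 0.49 ± 0.08 in Rptor fl/fl against WT organoids (edgeR adjusted p = 0.0194), fell by 0.96 in SCe against WT organoids (edgeR adjusted p = 0.00365) and was higher in Rptor fl/fl than in SCe organoids in mRNA (1.48 ± 0.12) and in footprints (0.80 ± 0.17, edgeR adjusted p = 0.0129). Keap1, which encodes its inhibitor, fell in SCe against WT organoids (-0.48 ± 0.09, edgeR adjusted p = 0.0132) and did not pass in Rptor fl/fl against WT organoids (-0.15 ± 0.07). Like Nfe2l2, Keap1 had higher mRNA in Rptor fl/fl than in SCe organoids (0.35 ± 0.09, edgeR adjusted p = 0.0287). Keap1 footprints did not pass between these groups (0.68 ± 0.26, edgeR adjusted p = 0.111). In Rptor fl/fl against WT organoids 4 of the 28 listed genes tested were called higher and 7 lower (all genes 11.7% and 11.3%, list median -0.18). Taldo1 (-0.90 ± 0.06) and the sulfiredoxin gene Srxn1 (-0.81 ± 0.06) fell beside Slc7a11. In SCe against WT organoids 8 of 29 were called higher and 9 lower (all genes 22.2% and 19.9%, list median 0.0877), with Abcc4 (1.80 ± 0.19) and Abcc1 (0.90 ± 0.11) higher. In Rptor fl/fl against SCe organoids 5 of 29 were called higher and 10 lower in mRNA (all genes 21% and 21.7%, list median -0.22), led by Taldo1 (-1.08 ± 0.07) and Mafg (0.99 ± 0.07). Nfe2l2 and Keap1 were among the 5 called higher. In footprints 4 of 28 were higher and 4 lower (all genes 6.59% and 9.83%, list median -0.0402), led by Ephx1 (-1.22 ± 0.15) and Nqo1 (2.16 ± 0.30). Translation efficiency was called upward for Slc7a11 and downward for the ferritin light chain Ftl1 (-1.72 ± 0.32), 2 of 28 listed genes (all genes 1.14% and 1.82%, list median 0.22). Taldo1 (0.64 ± 0.18) did not pass. In mice 7 of 27 were called higher and 0 lower in edgeR (all genes 8.25% and 6.63%, list median 0.17), with the ferritin heavy chain Fth1 (0.55 ± 0.08), Gclm (0.52 ± 0.09) and Ugdh (0.30 ± 0.07) first, while Nfe2l2 (0.06 ± 0.09) and Keap1 (-0.02 ± 0.14) did not pass. Without SCe replicate 1, 13 listed genes were called higher and 11 lower in SCe against WT organoids (all genes 31.8% and 32.2%). In Rptor fl/fl against SCe organoids 5 were then higher and 13 lower in mRNA (all genes 30.8% and 30.1%). In footprints 6 were higher and 6 lower (all genes 10.5% and 13.5%).

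Members varied together to different degrees over the 13 organoid lines and libraries, after log2 CPM was centred within RNA-seq and within Ribo-seq. These correlations are descriptions over points that share groups, depth and SCe replicate 1. Gstm1 and Gstm3, which share reads, had r = 0.986, Gsta4 and Gsto1, which share none, had r = 0.941, and Gsta2 and Gsta3 had r = 0.930. Gstp1 was negatively related to each of the other members, from -0.665 with Gsta2 to -0.276 with Gstk1. Among 10569 genes, the single most similar was Casp1 for Gsta2 (r = 0.990), Chmp3 for Gsta3 (0.977), Gjb1 for Gsta4 (0.986), Gstm3 for Gstm1 and Gstm1 for Gstm3, Arhgef39 for Gstm2 (0.965), Gm17018 for Gstp1 (0.954), Cebpb for Gsto1 (0.978), Abcg8 for Gstk1 (0.847) and Cyp2j6 for Mgst1 (0.9748).

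NRF2 is known to bind the antioxidant response element, and its core, TGACNNNGC on either strand, was searched in promoters of 300 bases (250 before to 50 after the RefSeq start site, GRCm38.p6). Of the 9 members matched by symbol, 2 held it in at least 1 promoter, against 14% of 27025 genes. Gsta3 held TGACATTGC on the gene strand. Mgst1 held the core on the other strand, which reads GCACGGTCA on the gene strand. Gsta4 had no entry. A match is a description of these letters and not of binding.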

How the data were processed

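RNA-seq and Ribo-seq were analysed from 23 libraries in 7 groups. The authors trimmed reads with cutadapt 1.18 and assigned them with Salmon 1.1.0 to GENCODE vM21 transcripts (mm10), as the submitters' processing notes and the methods give it, and deposited estimated counts and TPM per entry. The deposited TPM were not used, and TPM were recomputed per gene from the estimated counts and effective lengths to compare levels between genes. The deposited table of translation efficiency (a RiboDiff output with fold changes and p-values) holds the authors' own comparisons and was not used. Organoid Ribo-seq had separate entries for 5′ regions, which were left out of the gene counts and added to them in an alternative chosen after seeing the data.

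Estimated counts were summed per gene, technical libraries were summed per organoid line, and the sums were rounded. Each contrast was fitted over all genes with the edgeR 4.0.16 quasi-likelihood test (R 4.3.3, TMM scaling, filterByExpr, Benjamini-Hochberg adjustment, threshold 0.05, no replicate block). For translation efficiency, the interaction term between assay and group was tested. Fold changes are log2, ± is the SE and intervals are 95%. The scripts were tested on simulated data. DESeq2 1.42.0, no count filter, a length offset, a replicate block, summed near copies, separate technical libraries, a fit of 3 RNA-seq groups and leaving out each library were tried. Reads that several copies share were divided by Salmon's model. A count of 0 was taken to allow up to 3 counts, which covers counting error only. The labels do not say that every library is a separate culture, so p-values measure the spread between these samples, which may be technical.

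The members and the gene lists were chosen with earlier results of these data known. The named genes were the members, their near copies, in each list and comparison the 3 genes of lowest adjusted p, Nfe2l2, Keap1, Rptor and, for each member, the most correlated gene (log2 of CPM plus 1, genes with a mean count of at least 10).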

Additional observations from a re-analysis of the deposited data

Results flagged for a closer look

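In organoid Ribo-seq, footprints on 5′ regions had been assigned to separate entries that the gene counts leave out. For 2 of the 10 members these were higher in every library labelled Rptor fl/fl than in every SCe library, as for 3.19% of the 10919 genes with such footprints, with an SCe library without footprints taken at the level that 3 would give. Gsta3 had at least 9.01 CPM (here per library total, without TMM) on its 5′ entries in the Rptor fl/fl libraries and at most 4.38 in SCe libraries. For Gsta4 the lowest Rptor fl/fl value was 37.5 and the highest SCe value 19.9 CPM. Both genes were also higher in coding footprints, and no separate test was run on the 5′ entries.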

How the results depend on the processing

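For the number of members past the threshold, the fit of all 3 RNA-seq groups gave 0 for Rptor fl/fl against WT organoids, where 4 were called, and 4 for SCe against WT organoids, where 2 were called. DESeq2 and separate technical libraries also gave 4 each for SCe against WT. The fit of all 3 groups called 5.44% of all genes higher and 4.83% lower for Rptor fl/fl against WT. For SCe against WT it called 23.5% and 23.5%, DESeq2 26.1% and 24.6%, and separate technical libraries 31.6% and 29.5%. Leaving out 1 line or library gave 2 to 3, 1 to 7, 2 to 7 and 0 to 3 members for Rptor fl/fl against WT, SCe against WT and Rptor fl/fl against SCe mRNA and for translation efficiency. Gsta3 lost its translation efficiency call, leaving 0, without the count filter (edgeR adjusted p = 0.0530). The causes were not tested. Footprint counts of 4 in organoids and 0 in mice stayed within 3 to 6 and at 0 under the alternatives. Counting footprints on 5′ entries, chosen after seeing the data, gave 5 members in footprints (all genes 6.78% higher and 10.1% lower). It gave 1 in translation efficiency (all genes 1.33% and 2.06%). Gsta2 moved from 4.51 to 2.82 in footprints and from 2.36 to 0.67 in translation efficiency.

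Same-numbered samples of different groups did not deviate together in Ribo-seq (correlation of deviations from the group means -0.0440 to 0.0289 in organoids and -0.00561 to 0.0340 in mice). RNA-seq had only 2 shared numbers (0.144 to 0.303), so the numbers were not taken as a pairing. Whether same-numbered RNA-seq and Ribo-seq libraries deviated together was not tested, and the block for translation efficiency was set within each assay. With a replicate block, 6 members were called for Rptor fl/fl against WT, adding Gsta2 and Mgst1 (edgeR adjusted p of 0.0112 and 0.0431). In that fit 16.4% of all genes were called higher and 16.7% lower. The block gave 2 members for SCe against WT (all genes 13.2% and 10.5%) and 3 for Rptor fl/fl against SCe mRNA (11.6% and 11.9%). For footprints 5 were called, adding Gstm3 (edgeR adjusted p = 0.0419), beside 5.2% and 7.25% of all genes. For translation efficiency 0 were called (Gsta3, edgeR adjusted p = 0.186), beside 0.112% and 0.14%, and for mice 0, beside 6.94% and 5.6%. The block also turned the sign of Gstm1 (0.34) and Gstm3 (0.81) in Rptor fl/fl against SCe mRNA, of Mgst1 in translation efficiency (-0.13) and of Gstm3 in mice (-0.0518), none past the threshold.

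Other sign changes concerned values that did not pass. For Rptor fl/fl against SCe mRNA they were Gstm2 with mu genes summed (-0.15) and Gstm3 without a count filter (0.00597), for translation efficiency Mgst1 with a length offset (-0.16), and for mice Gstm2 with mu genes summed (0.22). Without 1 line or library, the log2 fold changes ranged as follows. In Rptor fl/fl against WT organoids Gsta3 ranged from -0.0960 to 0.00866. In SCe against WT organoids Gstk1 ranged from -0.36 to 0.22. In Rptor fl/fl against SCe mRNA Gstm1 ranged from -0.40 to 0.25, Gstm2 from -0.11 to 0.36 and Gstm3 from -0.47 to 0.31. In translation efficiency Gstp1 ranged from -0.10 to 0.80 and Mgst1 from -0.17 to 0.33. In mice Gsta3 ranged from -0.30 to 0.18, Gsta4 from -0.15 to 0.21, Gstm3 from -0.23 to 0.18, Gstp1 from -0.0913 to 0.0406 and Mgst1 from -0.0677 to 0.00323. Depth limits Gsta2 most, with 3 to 9 footprints in SCe organoids and 0 to 4 in mice.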

Other observations

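Gsta2 held a larger share of its footprints on 5′ entries than all genes together. In the 3 libraries labelled Rptor fl/fl these entries took 18.0%, 31.1% and 35.8% of the Gsta2 footprints. In the SCe libraries they took 80.2%, 85.8% and 73.6%. Over all genes they took 3.97%, 4.25% and 3.82% in Rptor fl/fl libraries and 6.98%, 5.42% and 2.97% in SCe libraries. The SCe shares of Gsta2 rest on coding estimates of 2.56, 2.57 and 9.04 footprints, in a coding sequence largely shared with near copies. Salmon's estimates on the 5′ entries of Gsta2 were 68.8, 156 and 161 footprints in Rptor fl/fl organoids and 10.3, 15.6 and 25.2 in SCe organoids. Gstp1 held 2.97% to 4.58% of its footprints there in Rptor fl/fl and 1.76% to 7.30% in SCe organoids.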
